A study of Schizosaccharomyces pombe with 6 samples.

Results

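The genes described are those for the proteins of the large (60S) subunit of the cytosolic ribosome of the fission yeast Schizosaccharomyces pombe. They are the protein-coding genes whose symbol is rpl followed by a digit, and there were 76 of them among 5113 protein-coding genes of the annotation. The rule used names only and no measured value. Transcription start sites were mapped by CAGE (cap analysis of gene expression). The method reads only the capped 5′ ends of RNA, so each tag marks 1 start and levels need no correction for gene length. A double mutant, fft2fft3, with the disruptions fft2::kan and fft3::hph, gave 3 libraries, and the wild type, wt, gave 3 libraries. Both strains are h- and share the alleles leu1-32, ura4-D18 and ade6-M210 (written ade6M210 for the mutant). Each group is a single strain, and whole cells were taken in mid-log growth in YES medium at 30 °C. Fft2 and Fft3 are related SNF2-family chromatin remodellers, and the study asked whether start sites move when nucleosomes near them are lost.

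The large subunit holds the peptidyl transferase centre, where peptide bonds form, and the tunnel through which the new protein leaves. Its proteins bind ribosomal RNA and are needed in equal numbers, although in fission yeast most of them are encoded by copies at separate loci. Transcription of these genes is among the most active in a growing yeast cell and is tied to nutrient signalling through the kinase complex TORC1. In fission yeast many of their promoters lack a TATA box and carry a HomolD box (CAGTCACA) near the start, often with a HomolE box (ACCCTACCC) upstream. The HomolD box takes the place of the TATA box and is bound by Rrn7.

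The deposited value is TPM, tags scaled to the library total, in each of 108138 tag clusters, which are groups of neighbouring start sites defined once for all libraries. A gene's level is the sum of its same-strand clusters. A cluster was counted if its summit lay within 500 bp before the annotated start, or after it by at most 100 bp or the distance to the start codon if longer. Library totals recovered from the values were 19861900 to 23242899 tags in fft2fft3 and 12681899 to 20073003 tags in wt. Tags inside the coding part of fft2 came to 0.172, 0.0862 and 0.101 TPM in the fft2fft3 libraries, against 6.28, 4.65 and 4.40 TPM in the wt libraries. For fft3 they came to 0.215, 0.474 and 0.554 TPM in fft2fft3, against 2.84, 1.498 and 3.34 TPM in wt. For both genes every fft2fft3 library was below every wt library. Across all genes the median log2 fold change was 0.13 on the deposited scale. Among 11 measured mating and starvation genes the summed level was 205 to 290.0 TPM in fft2fft3 and 42.7 to 503 TPM in wt, where wt replicate 2 held the 503. No gene of that list was at 0 in all libraries. With all 6 libraries 3 of the 9 tested (zym1, ste11 and inv1) were higher in fft2fft3, where 24.3% of all genes tested were higher. Without wt replicate 2 the count was 7, and the share of all genes in that fit is not given here.

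The promoters shared a compact layout. Both strands were searched from 250 bp before to 50 bp after each annotated start. The letters CAGTCACA occurred in 50 of 76 rpl promoters (65.8%), against 137 of 5112 coding promoters (2.68%). Of those 137 promoters, 88 (64.2%) belonged to the 138 genes for ribosomal proteins of either subunit or of the stalk. ACCCTACCC occurred in 19 rpl promoters (25%), against 1.31% of coding promoters. TATAAA occurred in 19 (25%), against 48.1% of coding promoters. In the 55 promoters of small-subunit (rps) genes the shares were 61.8% for CAGTCACA, 38.2% for ACCCTACCC and 27.3% for TATAAA. These are matches of letters, not measured binding sites. None of the 3 motifs contains another.

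**Figure D1:**
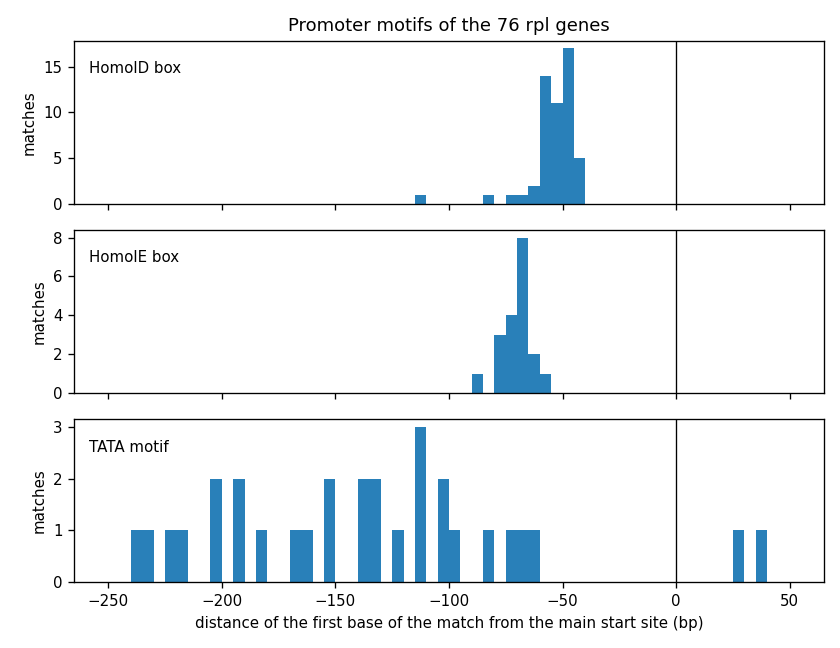
Distance in bp (horizontal axis) of each HomolD, HomolE and TATA match from the main start site of its rpl gene, as counts of matches in 5-bp bins (vertical axis). HomolD matches gather around 52 bp upstream of the start and HomolE matches around 70 bp upstream, while TATA matches are spread over the window.

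The first base of the HomolD match lay between 111 and 43 bp upstream of the main start site, with a median of 52 bp, as the plot of motif distances shows. In 47 genes it lay between 60 and 40 bp upstream. HomolE matches lay between 86 and 60 bp upstream, with a median of 70 bp. In all 13 promoters with both boxes the HomolE match was the upstream one, 9 to 30 bp away (median 20 bp). Of 53 HomolD matches, 38 read on the gene's strand and 15 on the other. The sequences below, from RefSeq assembly ASM294v3, run 5′ to 3′ on the gene's strand, with 100 bases before the annotated start and 10 bases from it on, and with the motifs in capitals. The first 3 are shown because they hold both boxes (rpl1701, II:1734000-1734109, minus strand), HomolD alone in the gene with the highest level (rpl2102, I:3400428-3400537, plus strand) and HomolE alone in a gene that fell to less than 50% (rpl22, I:5314724-5314833, plus strand).
rpl1701: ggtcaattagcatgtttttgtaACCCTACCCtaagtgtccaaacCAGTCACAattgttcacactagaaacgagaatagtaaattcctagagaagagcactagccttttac
rpl2102: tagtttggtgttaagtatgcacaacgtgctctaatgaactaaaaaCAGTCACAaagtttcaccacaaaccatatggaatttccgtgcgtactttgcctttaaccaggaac
rpl22: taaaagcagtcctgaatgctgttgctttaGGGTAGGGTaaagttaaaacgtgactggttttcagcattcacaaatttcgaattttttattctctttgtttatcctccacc

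In the double mutant the large-subunit genes fell together. Limma called 46 of the 76 lower and 0 higher, where 9.09% of the 5609 genes tested (9.63% of the coding ones) were called lower and 24.3% higher. The median log2 fold change of the 76 genes was -0.54, against 0.13 over all genes tested and 0.08 over coding genes tested. All members but rpl3002 had a log2 fold change below 0 on the deposited scale, and with median-of-ratios or TMM scaling rpl3002 was below 0 too. Relative to wt the median member kept 68.7% of its level, and the 46 called genes kept 41.2% to 79.2%. All 76 members passed the filter, a mean of 1 TPM or more. Median-of-ratios scaling called 59 members lower (17.7% of all genes), TMM 64 (21.2%), edgeR on recovered tags 54 (14.9%) and DESeq2 63 (16.9%).

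**Figure D2:**
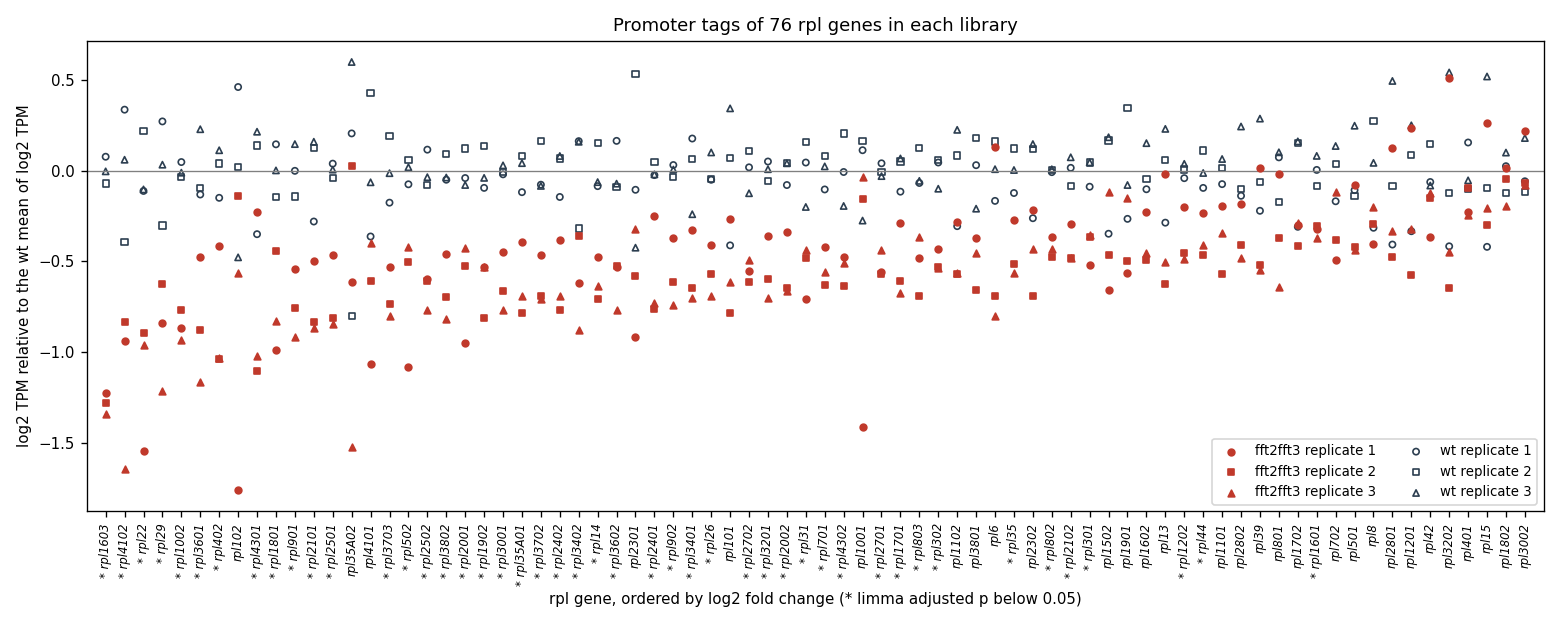
Level of each of the 76 rpl genes in each library (vertical axis, log2 TPM minus the wt mean of log2 TPM), with genes ordered by log2 fold change along the horizontal axis and an asterisk on genes with an adjusted p below 0.05 (limma). Filled red points are the 3 fft2fft3 libraries and open points the 3 wt libraries. Every fft2fft3 point lies below every wt point in 51 of 76 genes.

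Every fft2fft3 library was below every wt library in 51 of 76 genes, which 14.4% of all genes tested did. Beside the 0 called higher, limma gave 0 members an unadjusted p under 0.05 in that direction, and edgeR and DESeq2 called 0 higher. The 30 genes that were not called had log2 standard errors with a median of 0.18, against 0.13 in the called genes. Their median log2 fold change was also smaller in size, at -0.36 against -0.61. Of the 30, 10 had an unadjusted p under 0.05.

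The summed share of all tags at rpl promoters was 11.7%, 10.2% and 10.4% in the fft2fft3 libraries, against 14.1%, 15.1% and 15.4% in the wt libraries. The groups did not overlap, and the exact two-sided permutation test gave p = 0.1, the smallest that 3 libraries against 3 allow. The mean shares were 10.8% ± 0.81 in fft2fft3 and 14.9% ± 0.683 in wt (SD, n = 3 libraries each). Whether the libraries of a group come from separate cultures is not known, so the SD may measure technical spread only. Since TPM is a share of all tags, a fall of these genes on this scale can also reflect a rise elsewhere, and fewer cells transcribing them and less RNA per cell cannot be told apart. Replicate 1 was the fft2fft3 library with the highest level for 48 of the 76 genes, and wt replicate 1 was the lowest wt library for 43.

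**Figure D3:**
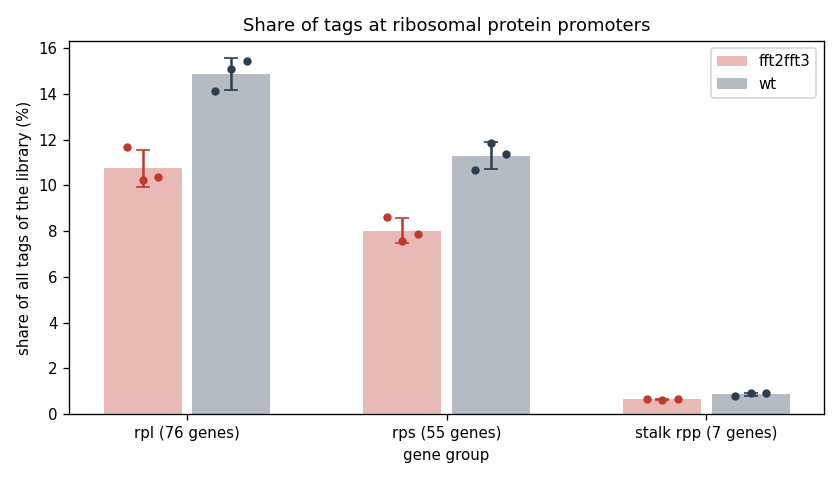
Share of all tags of a library (vertical axis, %) at promoters of rpl, rps and stalk genes. Bars are means, error bars are SDs, and points are libraries (n = 3 per group). For rpl genes the fft2fft3 libraries lie between 10.2% and 11.7% and the wt libraries between 14.1% and 15.4%.

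Genes for other ribosomal proteins were also lower. Of 55 small-subunit (rps) genes 33 were lower, where 9.09% of all genes tested were, with a median log2 fold change of -0.51. The count was 21 without wt replicate 2 or 3 and 17 without fft2fft3 replicate 2 or 3. Of 7 genes for the acidic stalk, which recruits translation factors, 3 were lower: rpp0, the stalk's anchor, and rpp102 and rpp103 for P1 proteins. The stalk's median log2 fold change was -0.32, and TMM scaling called 6 of the 7 lower, against 21.2% of all genes.

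The 6 members with the most negative change had mean wt levels from 97.0 TPM (rpl1603) to 2303 TPM (rpl1002), and none was among the 19 genes with the highest level. The gene rpl1603, 1 of 3 copies for the protein uL13, had 41.5, 40.0 and 38.3 TPM in fft2fft3, against 102, 92.3 and 96.6 TPM in wt. Its log2 fold change was -1.27 ± 0.11 (SE; limma adjusted p = 6.77e-05). The gene rpl4102, for the very small protein eL41, had 75.2, 80.9 and 46.2 TPM in fft2fft3, against 182, 110 and 150.0 TPM in wt, with a log2 fold change of -1.13 ± 0.26 (limma adjusted p = 0.0118). In both genes the groups were apart, and the spread between libraries was wider for rpl4102.

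The single-copy gene rpl22, for eL22, had 148, 232 and 221 TPM in fft2fft3, against 398, 499.5 and 400.1 TPM in wt. Its log2 fold change was -1.13 ± 0.19 (limma adjusted p = 0.00311). These 3 genes are the called members that kept less than 50% of the wt level. The single-copy gene rpl29, for eL29, had 794, 920 and 611 TPM in fft2fft3, against 1708, 1149 and 1449 TPM in wt (log2 fold change -0.89). The gene rpl1002 encodes uL16, which in budding yeast joins the subunit late in the cytoplasm. It had 1262, 1355 and 1205 TPM in fft2fft3, against 2378, 2248 and 2283 TPM in wt, and its log2 fold change of -0.86 had one of the smaller errors (SE 0.10). The gene rpl3601, for eL36, had 270, 205 and 168 TPM in fft2fft3, against 343, 352 and 440 TPM in wt (log2 fold change -0.84). All 6 of these genes stayed called lower when any 1 library was left out and under every other setting tried.

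At the other end, 4 genes had the least negative or a positive change. The gene rpl3002, for eL30, whose budding yeast counterpart binds its own transcript, had 1717, 1409 and 1401 TPM in fft2fft3, against 1418, 1361 and 1672 TPM in wt. Its log2 fold change was 0.02 ± 0.13, and its sign turned with the scaling, at -0.18 with median-of-ratios and -0.24 with TMM. The gene rpl1802, for eL18, had 30.7, 29.4 and 26.6 TPM in fft2fft3, against 30.9, 27.9 and 32.5 TPM in wt (log2 fold change -0.07). The gene rpl15, for eL15, had 1616, 1096 and 1166 TPM in fft2fft3, against 1007, 1259 and 1927 TPM in wt (log2 fold change -0.08). The gene rpl401, for uL4, which reaches into the exit tunnel, had 1837, 2012 and 1814 TPM in fft2fft3, against 2394, 2008 and 2073 TPM in wt (log2 fold change -0.19). None of these 4 was called, and in each the groups overlapped.

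**Figure D4:**
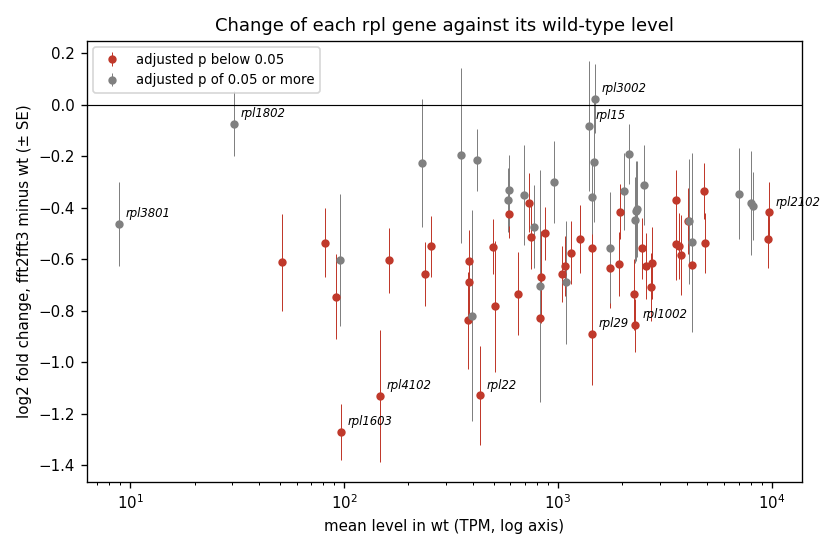
Log2 fold change of each rpl gene (vertical axis, fft2fft3 minus wt, with SE bars from limma) against its mean level in wt (horizontal axis, TPM on a log scale). Red points have an adjusted p below 0.05 and grey points do not. Genes of low and of high level both lie below 0, and rpl3002 alone lies above it, though not with median-of-ratios or TMM scaling.

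Levels spanned 1095-fold in wt, from a mean of 8.89 TPM for rpl3801 to 9737 TPM for rpl2102, and the fall did not follow level closely. Across the 76 genes, which share libraries and are not independent replicates, wt level and log2 fold change had Pearson's r = 0.19 and Spearman's rho = 0.21. The 10 genes with the highest level held 43.5% of all rpl tags in wt. Of these, rpl2102, for eL21, had 7933, 6980 and 6975 TPM in fft2fft3, against 9826, 9156 and 10230 TPM in wt. Its log2 fold change was -0.42 (limma adjusted p = 0.0303). The next gene by level, rpl2701 for eL27, had 6474, 6436 and 7059 TPM in fft2fft3, against 9812, 9489 and 9345 TPM in wt (log2 fold change -0.52, limma adjusted p = 0.00905). Both genes stood clear of their wt values, although the call of rpl2102 was lost without wt replicate 1 or 3 or fft2fft3 replicate 2 or 3 (adjusted p up to 0.122). The call of rpl2701 was lost with the replicate number added to the fit (limma adjusted p = 0.0565).

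The third, rpl1602 for uL13, had 6914, 5753 and 5927 TPM in fft2fft3, against 7544, 7842 and 8993 TPM in wt. Its groups did not overlap, but limma's adjusted p was 0.0549. It was called lower with median-of-ratios or TMM scaling and with edgeR or DESeq2 on the recovered tags. The fourth, rpl13 for eL13, had 7789, 5122 and 5562 TPM in fft2fft3, against 6466, 8210 and 9243 TPM in wt. Its groups overlapped and it was not called.

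Genes of low level also had negative changes. The gene rpl3801, for eL38, had 6.84, 5.60 and 6.44 TPM in fft2fft3, against 9.02, 10.01 and 7.64 TPM in wt (log2 fold change -0.46, limma adjusted p = 0.0613). The gene rpl3402, for eL34, had 32.9, 39.3 and 27.5 TPM in fft2fft3, against 56.4, 40.5 and 56.3 TPM in wt (log2 fold change -0.61, limma adjusted p = 0.0394). The groups were apart in both, and the call of rpl3402 was lost without replicate 1 or 3 of either strain (adjusted p up to 0.129).

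Members were also grouped by the place of the protein in the subunit, from textbook knowledge and with no test between groups. Among all 76 members 60.5% were lower, and of the 51 members outside the groups below 31 were. Of 12 genes for proteins that line or rim the exit tunnel, 8 were lower, and the median log2 fold change was -0.53. They included rpl2501, rpl2502, rpl26, rpl31 and rpl35 at the rim and rpl402 inside the tunnel, while rpl39 had 78.9% of its wt level and was not called. Of 7 genes for proteins near the catalytic centre, 5 were lower (rpl1002, rpl301, rpl302, rpl802 and rpl803). Of the 4 genes for uL18 and uL5, which carry the 5S RNA into the subunit, rpl502 was called and the others were not, and the median log2 fold change was -0.42. For uL11 at the stalk base, rpl1202 was called and rpl1201 was not. The calls of rpl1202, rpl1701, rpl301, rpl31, rpl35, rpl502, rpl802 and rpl803 were lost on leaving out at least 1 library, which for rpl802 and rpl803 was fft2fft3 replicate 2.

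Most of the proteins are made from copies. Of the 43 proteins, 12 had a single gene, 29 had 2 copies and 2 had 3 copies (rpl16 and the uL2 genes rpl801, rpl802 and rpl803). Coding sequences of copies were 66.1% to 99.6% identical (median 87.8%). The first 25 bases from the main start were unique in the genome for all 76 genes. Summed over copies, the level in fft2fft3 was 46.3% to 86.3% of that in wt (median 70.1%). Every fft2fft3 library was below every wt library for 31 of the 43 proteins. Among all single genes tested 14.4% were so, and no such share was computed for sums of copies. The lowest percentage of the wt level was that of rpl22, a single gene, and the highest that of the pair rpl3001 and rpl3002.

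Copies of a protein were used unequally, and mostly in the same way in both strains. In wt the higher copy of a pair exceeded the lower 1.10-fold to 83.8-fold, with a median of 3.01-fold over 35 pairs. In 15 pairs the ratio was above 5-fold and in 6 it was below 1.5-fold. The same copy was higher in all 6 libraries in 32 of the 35 pairs. The log2 ratio of the copies moved by a median of 0.19 in size between the strains, and by less than 0.25 in 23 pairs. In 13 pairs both copies were called lower, in 17 pairs 1 copy and in 5 neither, where 9.09% of all single genes tested were called lower.

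**Figure D5:**
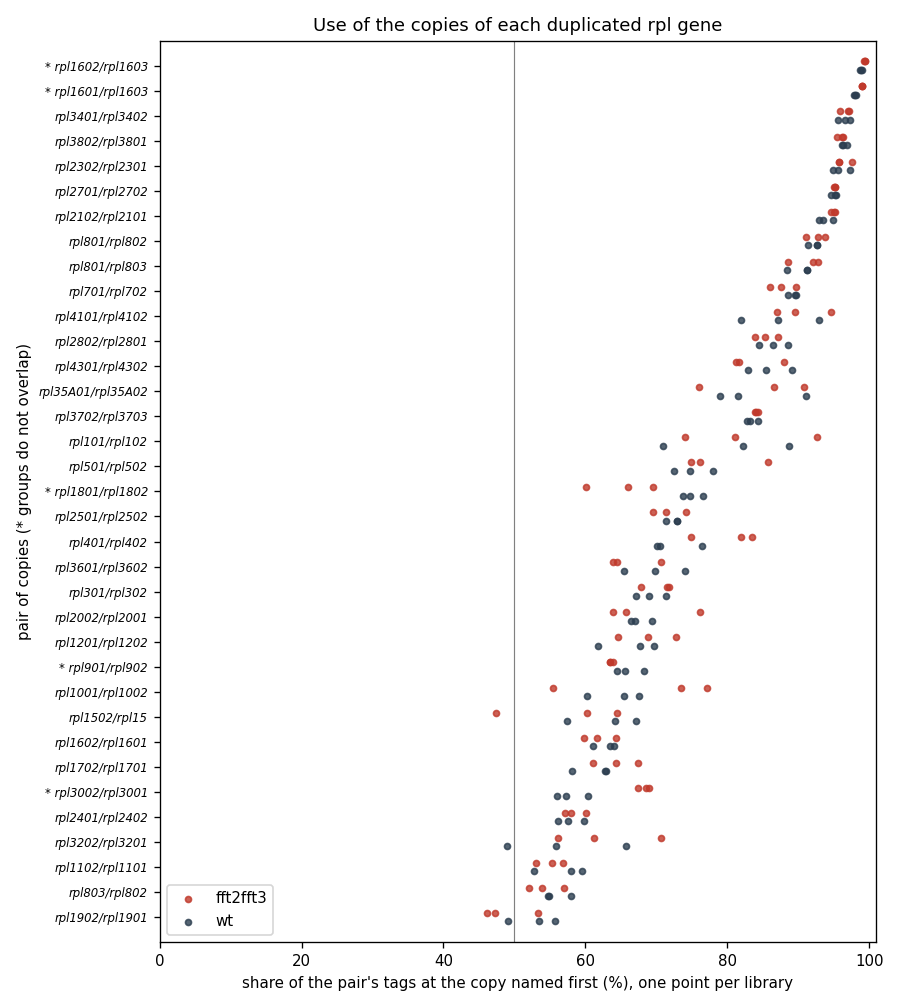
Share of a pair's tags at its higher copy, named first (horizontal axis, %), for the 35 pairs of rpl copies ordered by that share in wt. Each point is 1 library, with fft2fft3 in red above wt in dark blue, and an asterisk marks the 5 pairs whose groups do not overlap.

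In 5 of the 35 pairs the 3 fft2fft3 ratios lay outside the range of the 3 wt ratios. That is the same share as the 14.3% of 70 named copy pairs of the whole genome, which include the 35 rpl pairs. For each of these 5 the exact two-sided permutation test gave p = 0.1, the smallest possible with 3 libraries per group. With only 2 libraries in a group more pairs are apart: 9 without wt replicate 1, 8 without wt replicate 3, 15 without fft2fft3 replicate 1 and 8 without fft2fft3 replicate 3. Of the 5 pairs, 2 share rpl1603, whose promoter (shown beside those of its copies, of which rpl1602 alone holds a HomolD match) holds no exact match of either box. The sequences are from II:624046-624155, minus strand, I:4097226-4097335, plus strand and II:3443154-3443263, plus strand.
rpl1601: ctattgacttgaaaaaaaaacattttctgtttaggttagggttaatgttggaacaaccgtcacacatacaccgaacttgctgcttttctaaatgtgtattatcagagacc
rpl1602: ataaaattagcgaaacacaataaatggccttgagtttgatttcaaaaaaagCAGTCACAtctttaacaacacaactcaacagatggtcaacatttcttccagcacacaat
rpl1603: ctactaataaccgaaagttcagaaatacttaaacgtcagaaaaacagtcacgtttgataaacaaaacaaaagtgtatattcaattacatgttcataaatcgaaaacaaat

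Within the family the rpl1601 and rpl1602 copies supplied nearly all tags. The gene rpl1601 had 3829, 3872 and 3699 TPM in fft2fft3, against 4801, 4522 and 5065 TPM in wt (log2 fold change -0.33, limma adjusted p = 0.046), and its call was lost on leaving out any 1 library. The copy rpl1602 exceeded rpl1603 155-fold in fft2fft3 and 83.8-fold in wt, and rpl1601 exceeded it 95.2-fold in fft2fft3 and 49.4-fold in wt. The change of log2 ratio was 0.88 for rpl1602 against rpl1603 and 0.94 for rpl1601 against rpl1603, the largest of all pairs. For rpl1602 against rpl1601 it was -0.06, and those groups overlapped. The pair of rpl3401 and rpl3402 was also far apart in level, 29.4-fold in fft2fft3 and 28.1-fold in wt, with a change of 0.05.

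The copies of eL30 form another of the 5 pairs. The gene rpl3001 had 789.8, 679 and 631 TPM in fft2fft3, against 1060.2, 1070.4 and 1097 TPM in wt, a log2 fold change of -0.63 (limma adjusted p = 0.00481). Its copy rpl3002 had the value near 0 given above. The share of the pair's tags at rpl3002 was 68.5%, 67.5% and 68.9% in fft2fft3, against 57.2%, 56.0% and 60.4% in wt. Both promoters carry a HomolD box, on opposite strands, and rpl3001 also has a HomolE box. They are shown for I:1974074-1974183, minus strand and I:5095870-5095979, minus strand.
rpl3001: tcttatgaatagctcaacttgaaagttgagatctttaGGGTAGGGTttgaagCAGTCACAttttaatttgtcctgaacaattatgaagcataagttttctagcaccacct
rpl3002: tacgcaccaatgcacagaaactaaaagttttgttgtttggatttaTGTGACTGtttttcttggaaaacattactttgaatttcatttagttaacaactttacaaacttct

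For eL18 the higher copy was called lower. The gene rpl1801 had 46.2, 67.3 and 51.6 TPM in fft2fft3, against 100.9, 82.6 and 91.4 TPM in wt (log2 fold change -0.74, limma adjusted p = 0.0105), while rpl1802 was not called. The share of tags at rpl1801 was 60.04%, 69.6% and 66.0% in fft2fft3, against 76.6%, 74.8% and 73.7% in wt. The fifth pair whose groups did not overlap was rpl901 and rpl902, for uL6, where the share at rpl901 averaged 63.6% in fft2fft3 and 66.1% in wt. Both of its copies were called lower.

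In 8 other pairs the mean log2 ratio moved by more than 0.25 but the groups overlapped, and the 2 with the largest moves were those of uL4 and eL41. For uL4 the gene rpl402 had 614, 398 and 401 TPM in fft2fft3, against 737, 840.2 and 883 TPM in wt (log2 fold change -0.83, limma adjusted p = 0.011). The share of tags at rpl401 was 74.9%, 83.5% and 81.9% in fft2fft3, against 76.5%, 70.5% and 70.1% in wt, so fft2fft3 replicate 1 lay within the wt range. For eL41 the gene rpl4101 had 506, 695 and 804 TPM in fft2fft3, against 824, 1424 and 1012 TPM in wt (log2 fold change -0.69, limma adjusted p = 0.0581). The share at rpl4101 was 87.1%, 89.6% and 94.6% in fft2fft3, against 81.9%, 92.9% and 87.1% in wt. The promoters of both copies, from I:5402237-5402346, minus strand and I:2853922-2854031, minus strand, hold a HomolD box at nearly the same distance from the start.
rpl4101: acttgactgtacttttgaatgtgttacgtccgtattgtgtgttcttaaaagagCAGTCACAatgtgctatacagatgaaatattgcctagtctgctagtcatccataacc
rpl4102: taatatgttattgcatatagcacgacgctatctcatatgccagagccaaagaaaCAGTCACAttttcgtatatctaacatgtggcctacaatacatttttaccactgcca

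The fall was seen with and without the boxes. Among all 76 members 60.5% were called lower, where 9.09% of all genes tested were. Of the 50 genes with a HomolD match 25 were lower, with a median log2 fold change of -0.52. Of the 26 without a match 21 were lower, with a median of -0.61. Of the 19 genes with a HomolE match 12 were lower, and of the 20 with neither box 16 were lower. These counts were not tested against each other, and exact matches miss boxes that differ by a letter.

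Start sites of these genes were concentrated in a single cluster. The windows of the 76 genes held 244 clusters, of which 77 averaged 5 TPM or more. The main cluster was 2 to 28 bp wide (median 10.5 bp) and held more than 99% of a gene's tags in 74 of 76 genes. The exceptions were rpl1801 with 85.1% and rpl1802 with 98.7%. Leaders, counted from the main start to the start codon, had a median of 19.5 nt, and the longest, in rpl3402, had 239 nt.

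The tag-weighted mean start position could be tested in 62 members, since 14 have 1 cluster. Limma called 0 of the 62, where 14.7% of 3513 genes were called, and 1 member (rpl22) had an unadjusted p under 0.05. Positions are in bp on a scale where the annotated start is 1. For rpl22 the mean start was at 0.47, 0.41 and 0.64 in fft2fft3, against 0.73, 0.85 and 0.84 in wt. That is a shift of -0.301 bp (limma adjusted p = 0.125). The next smallest adjusted p-values were those of rpl4302 (-0.229 bp), rpl702 (-0.331 bp) and rpl3601 (-0.244 bp), and none of them passed. The shift was below 1 bp in 60 of 62 members. The largest was 3.60 bp in rpl1801, whose groups differed by less than their spread. Clusters are fixed across libraries and nearly all tags lie in 1 of them, so this measure has little room to move in rpl genes and the 0 calls do not show that starts stayed in place.

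The share of tags in the main cluster was called in 25 of 62 members, 24 of them lower, where 28.8% of genes were called and 20.8% lower. In 22 of the 25 the minor clusters together averaged below the 0.5 TPM added to each side, so the odds follow the level of the main cluster. With minor clusters of at least 1 TPM together, 1 of 11 was called (rpl701, with a higher share in fft2fft3), where 44.5% of 1186 genes were. The count of 25 was 11, 13 and 12 without wt replicates 1 to 3, and 8 and 7 without fft2fft3 replicates 2 and 3. The smallest adjusted p-values were those of rpl1603, rpl2501, rpl22 and rpl3601. In rpl1603 the main cluster held 100%, 99.46% and 99.9% of tags in fft2fft3, against 99.9%, 100% and 99.9% in wt. In rpl22 it held 99.8%, 99.8% and 99.9% in fft2fft3, against 99.9%, 99.95% and 99.9% in wt.

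Few tags came from elsewhere in these genes. Of 36 clusters inside rpl genes on the same strand that averaged 1 TPM or more, 4 were lower in fft2fft3 (in rpl1601, rpl1602, rpl1802 and rpl402), where 9.36% of 11250 clusters were lower and 36.9% higher. The one in rpl1602 (chromosome I, 4097451 to 4097596, ASM294v2) had 8.86, 11.9 and 11.3 TPM in fft2fft3, against 15.7, 16.01 and 14.5 TPM in wt. The one in rpl1802, a gene whose promoter level was not called, had 3.40, 4.09 and 3.93 TPM in fft2fft3, against 7.12, 5.84 and 5.01 TPM in wt.

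Among antisense clusters 8 could be tested, with 2 called higher and 1 lower, where 36.9% of all 11250 clusters tested were higher and 9.36% lower. Of these 7 calls inside or antisense to rpl genes, 4 were left without wt replicate 2, 3 without fft2fft3 replicate 1 and 2 without fft2fft3 replicate 3. In rpl1603, 2143 bp downstream of its start (chromosome II, 3445384 to 3445401), the antisense cluster had 2.37, 1.47 and 1.61 TPM in fft2fft3, against 0.199, 0.394 and 0.81 TPM in wt (log2 fold change 1.29, limma adjusted p = 0.0034). In rpl2801 (chromosome II, 3197038 to 3197055) it had 2.50, 1.64 and 1.51 TPM in fft2fft3, against 0.448, 0.315 and 0.455 TPM in wt. In rpl801 (chromosome I, 4250799 to 4250886) it had 1.89, 1.55 and 1.01 TPM in fft2fft3, against 2.39, 3.15 and 2.07 TPM in wt. All 3 are far below the level of the promoters. All antisense clusters in rpl genes summed to 35.5 to 41.6 TPM in fft2fft3 and 23.6 to 57.4 TPM in wt, which overlap.

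Genes that act with the large subunit were also examined. Of 24 tested genes for its assembly 6 were lower, where 9.09% of all genes tested were. In budding yeast rlp7, erb1, nog1 and spb1 act on early particles in the nucleolus, rrb1 is a chaperone of uL3, and arx1 is an export factor. The gene rlp7 had 107, 102 and 118 TPM in fft2fft3, against 164, 201 and 171 TPM in wt (log2 fold change -0.71, limma adjusted p = 0.00348). That list had a median log2 fold change of -0.26. Median-of-ratios, TMM, edgeR and DESeq2 called 13, 14, 12 and 13 of its genes lower. Among all genes they called 17.7%, 21.2%, 14.9% and 16.9% lower. Limma called 2 of the list without wt replicate 1 and 3 without wt replicate 3 or fft2fft3 replicate 3. Limma called 0 of 12 translation factors (median -0.16), with 0 at an unadjusted p under 0.05. TMM called 4 of them lower, median-of-ratios and DESeq2 1 each, and edgeR 0, and limma called 1 higher without wt replicate 3.

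Of 16 regulators of ribosomal protein genes and growth 3 were called higher, a smaller share than the 24.3% of all genes: sck1 and gad8, protein kinases, and rhb1, the GTPase that activates TORC1. The gene rhb1 had 23.7, 21.1 and 20.4 TPM in fft2fft3, against 13.8, 12.9 and 15.9 TPM in wt. With median-of-ratios or TMM scaling limma called 0 of the 16 higher, edgeR and DESeq2 called 1 each, and limma called 1 without wt replicate 2. Genes for the HomolD-binding factor rrn7 (log2 fold change -0.03), fhl1 (0.30) and ifh1 (0.09) were not called. Of 12 core stress genes 8 were higher and 1 (pyp2, a phosphatase) lower, and 5 were higher with either other scaling and without wt replicate 1 or fft2fft3 replicate 3. Their summed level was 3146 to 3892 TPM in fft2fft3 and 1583 to 2355 TPM in wt. The heat-shock gene hsp16 had 152, 168 and 149 TPM in fft2fft3, against 21.7, 21.6 and 22.3 TPM in wt. The part of these stress genes in the fall of the rpl genes was not tested.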

How the data were processed

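Per the labels, RNA of whole cells of the 2 strains gave 3 CAGE libraries each. The growth protocol speaks of duplicate cultures, so p-values may measure technical spread only. The submitters' processing notes name build ASM294v2 and the tools CASAVA (1.6), Bowtie (0.12.7) and bedtools (2.15.0), without roles. The authors deposited RPM values per cluster (written TPM, T for tags). The authors also deposited a score per cluster pooled over libraries, a signal that was not used here. Of the deposited values 99.7% to 99.8% were whole tags (tolerance 0.02 tags). No counting intervals are given, since no molecular identifiers are named.

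Members, lists and named genes (those with the most and least negative change, the highest and lowest level, and the largest copy differences) were chosen with earlier results of these data known. The annotation was ASM294v3, in which 98.3% of 4344 promoter summits had a pyrimidine-purine step, against 23.1% of genome positions. That step was read 1 bp before the deposited coordinate, not at it. In 75.9% of these clusters the deposited coordinate was 1 bp past the gene's start in the annotation. Genes averaging 1 TPM or more were fitted in limma 3.58.1 (R 4.3.3, empirical Bayes, trend) on log2(TPM + 0.5), with Benjamini-Hochberg adjustment at 0.05 over all 5609 genes. That scale understates the change of low genes. Start position and main-cluster share were fitted without trend where every library had 5 TPM or more. The position fit left out genes with 1 cluster, a departure from the original plan. Copies share a symbol stem, and rpl15 was paired with rpl1502 by coding identity above 70%. Alternatives were edgeR 4.0.16 and DESeq2 1.42.0 on recovered tags, fits without single libraries or with a replicate block, and changes of scaling, window, filter and pseudocount. The gene fits with limma, edgeR and DESeq2 and models of position and main-cluster share were tested on simulated data. The cluster fit, the replicate block, the other scalings and the fits without single libraries were not. The simulated share had equal main and minor clusters at the outset, unlike that of rpl genes.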

Additional observations from a re-analysis of the deposited data

How the results depend on the processing

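Across 18 other settings the count of rpl genes called lower stayed between 28 and 64, and 24 genes were called lower in every one. The replicate block gave 28 (5.05% of all genes), and rpl2701 was lost at limma adjusted p = 0.0565. Same-numbered libraries did not deviate together (r = -0.21, -0.21 and -0.34), no library correlated best with its own number, and the labels name no pairing. Across numbers, r was 0.41 for fft2fft3 replicate 1 with wt replicate 3, 0.43 for 2 with 1 and 0.39 for 3 with 2. The remaining combinations were negative, and a block by that matching was not fitted. Leaving out single libraries gave counts of 32 to 52 lower, a median log2 fold change of -0.56 to -0.49 and a difference in tag share of -4.58 to -3.83 percentage points, and 28 genes stayed called whichever library was left out. The median log2 fold change was -0.74 with median-of-ratios and -0.80 with TMM scaling, -0.69 with edgeR and -0.69 with DESeq2. Those scalings moved the median of all genes to -0.07 (median-of-ratios) and -0.13 (TMM), against 0.13 as deposited. Position calls stayed at 0 in every setting tried. Main-cluster calls were 12 with a pseudocount of 0.1, 8 with the replicate block, 7 to 22 without single libraries and 1 with minor clusters of at least 1 TPM, a filter added after seeing the data. Called antisense or inside clusters numbered 14 with a filter of 0.5 TPM, 27 with median-of-ratios, 25 with TMM, 3 with the replicate block and 2 to 6 without single libraries, against 7. Copy pairs whose groups did not overlap numbered 6 to 15 without single libraries, since 2 libraries overlap less often. The sign turned for rpl3002 (-0.18, -0.24, -0.13 and -0.12 with median-of-ratios, TMM, edgeR and DESeq2, and -0.073 to 0.11 without single libraries), for rpl15 (-0.29 to 0.18 without single libraries) and for rpl3401 against rpl3402 (-0.14 to 0.24 without single libraries). Without wt replicate 3, rpl15, rpl2801, rpl3002 and rpl3202 were not below 0, and without fft2fft3 replicate 2, rpl15, rpl3002 and rpl3202. The cause was not tested. Depth limits antisense clusters, which hold few tags.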
